A study of Mus musculus with 20 samples.

Results

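The genes described here serve the transport of potassium, and of the chloride and bicarbonate that go with it, around endolymph, the fluid that bathes the hair cells of the utricle. They are 7 genes of the mouse: *Kcnq1*, *Kcne1*, *Slc12a2*, *Atp1b1*, *Atp1b2*, *Bsnd* and *Slc26a4*. They were chosen by name, as genes of the dark cells of the vestibular organ and, for *Slc26a4*, of the cells beside them, and all 7 had an entry among the 25655 genes of the count tables, of which 15803 had a count in at least 1 library. The libraries came from utricles of female C57BL/6J mice that were operated on at 8 weeks of age and examined 4 weeks later. There were 4 groups of 5 libraries. The sham + v mice kept their ovaries and carried a vehicle pellet. The other groups were ovariectomized (OVX), and carried a pellet of vehicle (OVX + v), of 50 µg estradiol (OVX + E2) or of 2.4 mg raloxifene (OVX + RAL), each made for release over 60 days. Raloxifene is a selective estrogen receptor modulator. All groups thus had an operation and a pellet, and the comparisons address whether the loss of the ovaries, and either drug after it, went with a change of these genes in the utricle.

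Endolymph is rich in K+ and poor in Na+, the reverse of most fluids outside cells, and the K+ current through hair cells depends on this. In the utricle, dark cells beside the sensory epithelium secrete the K+. On the side facing the blood, the Na,K-ATPase and the Na-K-2Cl cotransporter NKCC1 (*Slc12a2*) take K+ up, and chloride leaves again through channels that need barttin (*Bsnd*). On the side facing endolymph, K+ leaves through the channel formed by KCNQ1 and its subunit KCNE1. Pendrin (*Slc26a4*) is an anion exchanger of neighbouring transitional cells that secretes bicarbonate. Loss of several of these genes causes deafness with vestibular defects in mice.

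Each library was built from 1 ng RNA by a 3′ end method, which reads the last part of each poly(A) transcript, and held 1123053 to 2081747 counts each (median 1694820). Levels are given as CPM, the count of a gene scaled to a common library total, which are not corrected for length, so that levels are compared within a gene and not between genes. In whole-utricle RNA, fewer cells of a type and less RNA per cell cannot be told apart. Of dark cell markers other than the 7 genes, *Esrrb* (a nuclear receptor of K+-secreting cells) had 3 counts or more in all 20 libraries, with a mean of 93.2 CPM. *Kcnk1*, a K+ channel of the two-pore family, had at least 34 counts in each, with a mean of 98.4 CPM. *Kcne3* was at 0 in 19 of 20 libraries, and *Esrrg* in all 20. *Esrrb*, *Kcnk1* and *Kcne3* summed to 42.2 to 477 CPM per library. Hair cell markers (9 genes) were detected with a sum of 452 to 1530 CPM per library, and markers of supporting cells and otoconial matrix (7 genes) with 1332 to 4432 CPM. Nothing in the labels names the animal behind each library, so that p-values measure the spread between these libraries.

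Libraries 1, 6, 11 and 16, the first of each group, stood apart from the other 16. The labels name no batch, and the 4 were noticed from their values. All 4 had less *Kcnq1* (19.2 to 43.2 CPM) than any of the other 16 (65.7 to 297 CPM). Among 7262 genes with a mean of 20 CPM or more, 12 (0.165%) lay below and 9 (0.124%) above the other 16 in all 4 libraries. The 4 also had a lower share of mitochondrial counts (4.80 to 8.36%, against 7.16 to 12.3%). Markers of fibrocytes and mesenchyme (7 of 7 genes detected, none at 0 throughout the 4 or the 16) summed to 12321 to 16409 CPM in the 4 and to 7183 to 12841 CPM in the others. Markers of supporting cells and otoconial matrix (7 of 7 detected, likewise) summed to 1332 to 2491 CPM in the 4 and to 2201 to 4432 CPM in the others. The 3 dark cell markers beyond the members summed to 42.2 to 126 CPM in the 4 (median 99.6) and to 48.3 to 477 CPM in the others (median 180.3), with *Kcne3* found in library 6 alone. Among them, *Esrrb* had a mean of 25.7 ± 22.1 CPM (SD) in the 4 and of 110.1 ± 62.9 CPM in the others. Endothelial markers also had a lower median in the 4 (5 of 5 detected, *Pecam1* and *Tek* at 0 in each of the 4), with sums of 64.3 to 178 CPM (median 152) against 108 to 431 CPM (median 265). The lists that follow had a higher median in the 4. Neuronal markers (6 of 6 detected, *Prph* at 0 in each of the other 16) summed to 179 to 396 CPM (median 296) against 67.7 to 234 CPM (median 187). Those of skeletal muscle (5 of 5 detected) summed to 31.2 to 314 CPM (median 108) against 0 to 227 CPM (median 5.58), and those of bone (5 of 5 detected) to 78.5 to 288 CPM (median 167) against 0 to 217 CPM (median 68.9). For airway and middle ear mucosa (2 of 5 detected, *Scgb1a1*, *Muc5b* and *Sec14l3* at 0 in all 20) the sums were 166 to 361 CPM (median 344) against 32.0 to 1786 CPM (median 94.8). Melanocyte markers (6 of 6 detected) had a median of 1166 against 736 CPM, blood markers (5 of 5) of 2103 against 1068 CPM, those of choroid plexus (7 of 8) of 789.9 against 625 CPM and those of macrophages (6 of 6) of 158 against 129.7 CPM. The ranges of all these sums overlapped between the 4 and the other 16. The part of these differences in the values of the 7 genes was not tested. As each group holds 1 such library, the log2 fold changes of each of the 7 genes against OVX + v are given with and without the 4.

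Because the reads come from transcript ends, the last bases of a transcript decide what is counted. The polyadenylation signal (AATAAA or its variant ATTAAA, here in capitals) and the bases around it are shown for members that the results turn on, 5′ to 3′ on the transcript's strand, in the last exon of the GENCODE vM39 canonical transcript (GRCm39).
*Kcnq1* (chr7:142980752-142980781, + strand): tccaAATAAAgttgggacgtcccaggttga
*Kcne1* (chr16:92142884-92142913, - strand): tctaATTAAAagcaacccccacagcactga
*Atp1b1* (chr1:164264678-164264707, - strand): acaacggacAATAAAagaatgaacacattc
*Atp1b2* (chr11:69490574-69490603, - strand): gtacAATAAActgagagcgattatatatat
*Slc26a4* (chr12:31568169-31568198, - strand): gttatttAATAAAtgtaaagttatctttgg
One of these signals was found in the last 60 bases for 71.59% of 21770 canonical coding transcripts, for 6 of the 7 members and not for *Slc12a2*. None of the 338 windows of 63 bases in the last 400 bases of each member occurred in an annotated transcript of another gene. Exact reads of this length from these ends thus match the transcripts of 1 gene. Matches with mismatches, or to the genome outside transcripts, were not searched. The deposited gene end lay 1657 bases before the transcript end for *Slc26a4* and 919 bases before it for *Slc12a2*, and at most 9 bases before it for the other members. Counts of *Slc26a4* and *Slc12a2* can therefore miss reads of the canonical transcript. The bases shown for *Slc26a4* lie beyond its deposited end, and for both genes the windows say little about what was counted.

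**Figure D1:**
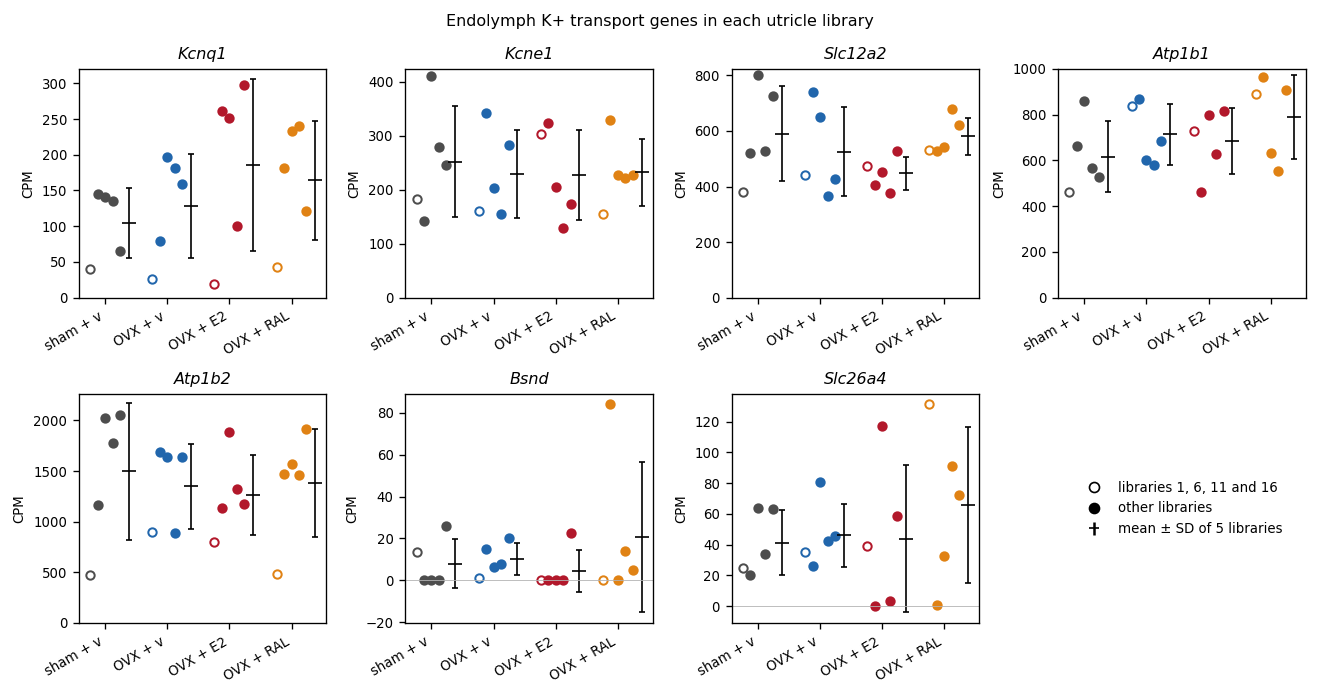
CPM of the 7 genes (y axes, linear) in each utricle library, by group (x axes). Each point is a library, open points are libraries 1, 6, 11 and 16, and the bar beside each group is the mean ± SD of 5 libraries. The ranges of neighbouring groups overlapped for every gene, and the open points lie lowest in each group for *Kcnq1*.

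*Kcnq1* encodes the pore of the channel through which dark cells secrete K+ (chromosome 7, 142660099 to 142980779, + strand). In the sham + v group (libraries 1 to 5), *Kcnq1* was at 39.4, 145, 140.5, 135 and 65.7 CPM, and in the OVX + v group (libraries 6 to 10) at 25.5, 79.05, 197, 182 and 159 CPM. In the OVX + E2 group (libraries 11 to 15), *Kcnq1* was at 19.2, 261, 251.7, 99.7 and 297 CPM, and in the OVX + RAL group (libraries 16 to 20) at 43.2, 182, 234, 240.3 and 121 CPM. Within each group the lowest value was that of library 1, 6, 11 or 16, and the groups overlapped over most of their range. The means ± SD were 105 ± 49.01, 128 ± 73.2, 186 ± 120.1 and 164 ± 82.8 CPM in these 4 groups, in this order (each n = 5). From lowest to highest the order was thus sham + v, OVX + v, OVX + RAL and OVX + E2, and no neighbours in it differed beyond their spread. The log2 fold change against OVX + v was -0.29 (SE 0.496, 95% interval -1.26 to 0.68) in sham + v, 0.53 (SE 0.507, 95% interval -0.46 to 1.53) in OVX + E2 and 0.35 (SE 0.412, 95% interval -0.46 to 1.16) in OVX + RAL. Two-sided exact permutation tests on log2(CPM + 1) gave p = 0.556 to 0.937 over the 4 comparisons. Without libraries 1, 6, 11 and 16 these log2 fold changes were -0.34, 0.56 and 0.33. Leaving out 1 library at a time moved the values of all 20 libraries from -0.55 (without library 6) to -0.079 (without library 1) in sham + v, from 0.27 (library 6) to 0.83 (library 11) in OVX + E2 and from 0.09 (library 6) to 0.60 (library 16) in OVX + RAL. The other 16 libraries had a mean of 174 ± 68.4 CPM (SD) beside 31.9 ± 11.3 CPM in the 4.

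*Kcne1* encodes the small subunit that joins KCNQ1 and slows its opening (chromosome 16, 92142870 to 92156356, - strand). The level of *Kcne1* was 184, 141, 410.1, 279.6 and 247 CPM in the 5 sham + v libraries and 160.1, 342, 204, 155 and 283 CPM in the 5 OVX + v libraries. It was 303, 324, 206, 129 and 173 CPM in the 5 OVX + E2 libraries and 155, 329.6, 228, 221 and 228 CPM in the 5 OVX + RAL libraries. The highest value was that of library 3 and the lowest that of library 14, and the 4 groups covered nearly the same range. Group means ± SD were 252.2 ± 103, 229 ± 81.5, 227 ± 83.8 and 232 ± 62.4 CPM (each n = 5, in the same order), highest in sham + v and lowest in OVX + E2. Against OVX + v, the log2 fold change was 0.14 (SE 0.353, 95% interval -0.55 to 0.83) in sham + v, -0.01 (SE 0.422, 95% interval -0.84 to 0.82) in OVX + E2 and 0.02 (SE 0.338, 95% interval -0.64 to 0.69) in OVX + RAL, with exact permutation p = 0.746 to 0.952 over the 4 comparisons. Without libraries 1, 6, 11 and 16 it was 0.13, -0.24 and 0.034. The 4 libraries with low *Kcnq1* held 155 to 303 CPM of *Kcne1*, within the 129 to 410 CPM of the other 16. The ratio of *Kcnq1* CPM to *Kcne1* CPM was 0.0635 to 0.278 in the 4 libraries and 0.231 to 1.72 in the others. Its mean ± SD was 0.467 ± 0.329, 0.618 ± 0.446, 0.916 ± 0.611 and 0.695 ± 0.347 over the groups, in the same order, with ranges that overlapped.

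**Figure D2:**
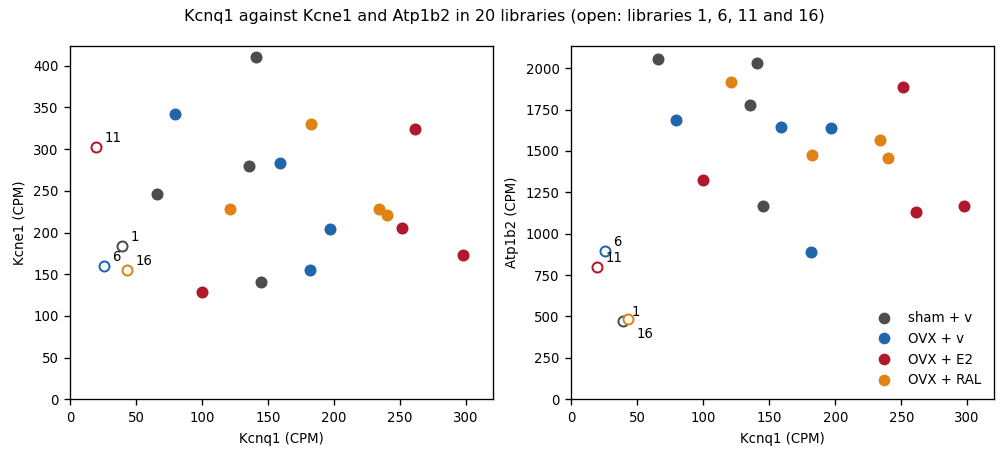
CPM of *Kcne1* (left, y axis) and *Atp1b2* (right, y axis) against CPM of *Kcnq1* (x axes, linear) in 20 libraries, coloured by group. Open points with numbers are libraries 1, 6, 11 and 16, which lie at 19.2 to 43.2 CPM of *Kcnq1*, at 155 to 303 CPM of *Kcne1* and at 472 to 895 CPM of *Atp1b2*.

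*Slc12a2* encodes NKCC1, which loads dark cells with K+ (chromosome 18, 58011750 to 58079893, + strand). The level of *Slc12a2* was 380.4, 519.6, 802, 527 and 725 CPM in the 5 sham + v libraries and 442, 739, 651, 365 and 429 CPM in the 5 OVX + v libraries. It was 474, 406, 451, 377 and 529.6 CPM in the 5 OVX + E2 libraries and 531, 526, 544, 678 and 622 CPM in the 5 OVX + RAL libraries. The OVX + E2 values lay at or below 530 CPM and the OVX + RAL values at or above 526 CPM, so that these groups overlapped by 1 library each at the edge, and both lay within the range of OVX + v (365 to 739 CPM). Means ± SD were 591 ± 170.2, 525 ± 161, 447 ± 59.6 and 580.1 ± 66.9 CPM (each n = 5, in the same order). The log2 fold change between OVX + E2 and OVX + RAL was -0.37 (SE 0.313, 95% interval -0.99 to 0.24). The two-sided exact permutation test gave p = 0.0159, the only one of the 28 tests of single genes (7 genes, 4 comparisons) below 0.05, where 5 against 5 libraries allow no p under 0.00794. The adjusted p over all genes was 0.900 by edgeR, whose standard error for this comparison was 0.313, while the spread of *Slc12a2* itself in these groups gave 0.112. The adjusted p was 0.564 or more under every other setting run, with 0.784 by DESeq2 and 0.825 by limma, so that the difference passed in none. Depth did not overlap between these 2 groups, with 1123053 to 1507667 total counts in OVX + E2 and 1702313 to 2081747 in OVX + RAL. Genes with a count numbered 7427 to 9680 and 10103 to 10290. The part of depth in the *Slc12a2* difference was not tested. Relative to OVX + v the log2 fold change was 0.17 in sham + v, -0.23 in OVX + E2 and 0.14 in OVX + RAL. Without libraries 1, 6, 11 and 16 these were 0.24, -0.31 and 0.12, and the value between OVX + E2 and OVX + RAL was -0.43. Leaving out 1 library, they ran from 0.035 (library 3) to 0.32 (library 7), from -0.34 (library 9) to -0.077 (library 7) and from 0.037 (library 9) to 0.30 (library 7).

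*Atp1b1* and *Atp1b2* encode beta subunits of the Na,K-ATPase, which the pump needs to reach the membrane (*Atp1b1* at chromosome 1, 164264678 to 164285924, *Atp1b2* at chromosome 11, 69490562 to 69496768, both - strand). The level of *Atp1b1* was 461, 663, 859.9, 568 and 529 CPM in the 5 sham + v libraries and 839, 868, 600.3, 579 and 686 CPM in the 5 OVX + v libraries. It was 727, 461, 797, 627 and 814 CPM in the 5 OVX + E2 libraries and 892, 966, 631, 554 and 907 CPM in the 5 OVX + RAL libraries. Over all groups *Atp1b1* had the lowest within-group coefficient of variation of the 7 genes (22.2%), close to *Slc12a2* (23.4%). In OVX + E2 and in OVX + RAL *Slc12a2* was steadier. No group was set off from another in *Atp1b1*. Its 3′ end overlaps that of *Nme7* on the other strand, which had 217 counts in the 20 libraries together. For *Atp1b1* the means ± SD were 616 ± 155, 714 ± 133, 685 ± 145 and 790.1 ± 184 CPM (each n = 5, in the same order), highest in OVX + RAL and lowest in sham + v. Its log2 fold change against OVX + v was -0.21 (SE 0.243, 95% interval -0.69 to 0.26) in sham + v, -0.06 (SE 0.251, 95% interval -0.55 to 0.43) in OVX + E2 and 0.15 (SE 0.237, 95% interval -0.32 to 0.61) in OVX + RAL. With the 4 libraries left out these values were -0.061, -0.018 and 0.16.

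The level of *Atp1b2* was 472, 1165, 2028, 1775 and 2057 CPM in the 5 sham + v libraries and 895, 1687, 1639.9, 887 and 1643 CPM in the 5 OVX + v libraries. It was 801, 1131, 1885, 1322 and 1170.0 CPM in the 5 OVX + E2 libraries and 482, 1473, 1567, 1457 and 1916 CPM in the 5 OVX + RAL libraries. Library 1, 11 or 16 had the lowest *Atp1b2* value of its group, and in OVX + v library 6 lay just above library 9. Its means ± SD were 1499 ± 677, 1350.3 ± 419.8, 1262 ± 397 and 1379 ± 534 CPM (each n = 5), highest in sham + v and lowest in OVX + E2. Compared with OVX + v, its log2 fold change was 0.15 (SE 0.186, 95% interval -0.21 to 0.51) in sham + v, -0.10 (SE 0.187, 95% interval -0.46 to 0.27) in OVX + E2 and 0.03 (SE 0.210, 95% interval -0.38 to 0.44) in OVX + RAL, and exact permutation p-values were 0.817 to 0.968 over the 4 comparisons. Without libraries 1, 6, 11 and 16 its log2 fold changes were 0.26, -0.088 and 0.13, and that in sham + v ran from 0.010 (library 5 left out) to 0.38 (library 1 left out). These 4 had 472 to 895 CPM of *Atp1b2*, and the other 16 had 887 to 2057 CPM. The share of *Atp1b1* in the counts of both beta subunits was 32.0 ± 11.4%, 35.6 ± 8.61%, 35.9 ± 8.11% and 38.6 ± 15.4% (SD, n = 5) over the groups in the same order. By library this share was 47.6 to 64.9% in the 4 libraries and 20.4 to 41.0% in the others, without overlap.

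*Bsnd* encodes barttin, a subunit that basolateral chloride channels of these cells need (chromosome 4, 106340653 to 106349480, - strand). The level of *Bsnd* was 13.6, 0, 0, 0 and 25.9 CPM in the 5 sham + v libraries and 1.25, 15.1, 6.24, 7.92 and 20.2 CPM in the 5 OVX + v libraries. It was 0, 0, 0, 0 and 22.4 CPM in the 5 OVX + E2 libraries and 0, 84.02, 0, 14.2 and 4.80 CPM in the 5 OVX + RAL libraries. It was at 0 in 9 of 20 libraries, where a count of 0 allows up to 3 counts, and had 3 counts or more in 10. One OVX + RAL library (number 17, 156 counts) held more than any other library, and the OVX + E2 group had *Bsnd* in library 15 alone. Means over the groups were 7.90 ± 11.7, 10.1 ± 7.50, 4.49 ± 10.04 and 20.6 ± 35.9 CPM (SD, each n = 5), highest in OVX + RAL and lowest in OVX + E2. Relative to OVX + v, the fitted log2 fold change was -0.36 (SE 2.36, 95% interval -4.99 to 4.28) in sham + v, -1.16 (SE 2.67, 95% interval -6.40 to 4.08) in OVX + E2 and 1.02 (SE 1.72, 95% interval -2.37 to 4.40) in OVX + RAL, with exact permutation p = 0.111 to 0.690 over the 4 comparisons. These tests compare mean log2(CPM + 1), on which the differences were -1.39, -2.21 and -0.54, so that the sign in OVX + RAL turned. In the 16 libraries the fitted values were -0.93, -1.12 and 1.06. Single libraries decided the fitted values: without library 15 the value in OVX + E2 was -6.95 against OVX + v and -8.08 against OVX + RAL, where the remaining OVX + E2 libraries are at 0 and the fit depends on the prior count, and without library 17 the latter was -0.076 in place of -2.18 and the value in OVX + RAL against OVX + v was -1.08. A change of *Bsnd* within these intervals was not detectable with this spread between libraries.

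*Slc26a4* encodes pendrin (chromosome 12, 31569826 to 31609968, - strand). The level of *Slc26a4* was 24.8, 19.9, 64.01, 34.1 and 63.01 CPM in the 5 sham + v libraries and 35.5, 26.3, 80.5, 42.1 and 45.3 CPM in the 5 OVX + v libraries. It was 39.1, 0, 117, 3.56 and 58.9 CPM in the 5 OVX + E2 libraries and 131, 0.539, 32.9, 91.3 and 72.5 CPM in the 5 OVX + RAL libraries. Values near 0 (libraries 12, 14 and 17) stood beside the highest of all (libraries 13 and 16) in the groups given estradiol or raloxifene, and the range of sham + v and of OVX + v lay inside both. Groups had means ± SD of 41.2 ± 21.01, 45.9 ± 20.6, 43.7 ± 47.8 and 65.7 ± 50.8 CPM (each n = 5), highest in OVX + RAL and lowest in sham + v. In edgeR, the log2 fold change against OVX + v was -0.16 (SE 0.966, 95% interval -2.05 to 1.73) in sham + v, -0.07 (SE 1.16, 95% interval -2.34 to 2.20) in OVX + E2 and 0.51 (SE 0.714, 95% interval -0.89 to 1.92) in OVX + RAL, with exact permutation p = 0.389 to 0.921 over the 4 comparisons. The permutation tests compare mean log2(CPM + 1), on which the differences were -0.21, -1.39 and -0.36, so that the sign in OVX + RAL turned. In the 16 libraries the fitted values were -0.10, -0.11 and 0.023, and that in OVX + RAL ran from 0.10 (library 16 left out) to 0.83 (library 17 left out).

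**Figure D3:**
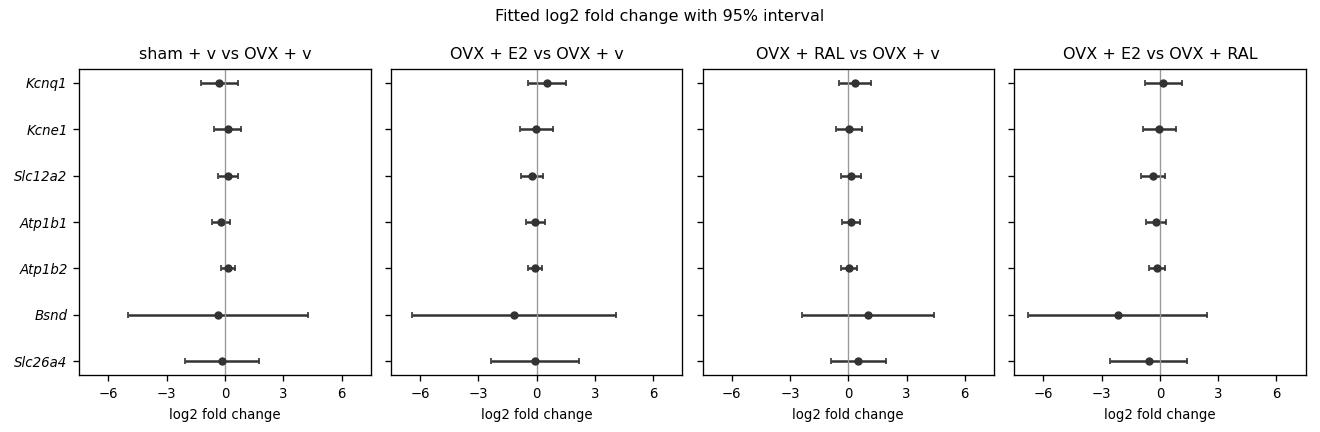
Log2 fold change (x axes) of the 7 genes (y axis) in 4 comparisons of 5 against 5 libraries, fitted by edgeR. Points are the fitted values and bars their 95% intervals, and all 28 intervals include 0, with those of *Bsnd* and *Slc26a4* the widest.

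None of the 7 genes passed an adjusted p of 0.05 by the quasi-likelihood test of edgeR in any comparison, and the lowest adjusted p was 0.900. Of all genes tested, 2 of 13825 (0.0145%) passed between sham + v and OVX + v, 8 of 13695 (0.0584%) between OVX + E2 and OVX + v, 4 of 14002 (0.0286%) between OVX + RAL and OVX + v and 10 of 13753 (0.0727%) between OVX + E2 and OVX + RAL. The test for any difference among the 4 groups called 21 of 14870 genes (0.141%) and again 0 of 7. A count of 0 of 7 is near this background and is no result about the members. At an unadjusted p under 0.05, 0 of 7 genes passed in each of these comparisons, beside 12.5%, 13.9%, 12.1%, 14.1% and 16.3% of all genes tested. Over all genes tested these edgeR p-values may be too small, as DESeq2 and limma put 2.82 to 5.69% of all genes under 0.05. With its default filter, which keeps fewer genes, edgeR put 1.65 to 3.02% under 0.05. Whether the p-values are too small or too large at the level of the 7 genes was not tested. DESeq2 called 0 of 7 in each comparison, beside 0.0868%, 0.277%, 0.0286%, 0.305% and 0.0134% of all genes tested, and limma 0 of 7 beside 0.0289%, 0.0803%, 0.0357%, 0.0727% and 0%. The intervals of *Bsnd* reached past 4 log2 units. The comparisons with OVX + v share its 5 libraries. Without libraries 1, 6, 11 and 16, again 0 of 7 passed (lowest adjusted p = 0.712 in a pair of groups and 0.696 for any difference, by edgeR), beside 0.0900%, 0.0983%, 0.0515%, 0.105% and 0.263% of all genes tested. None of the 28 log2 fold changes changed sign without them, and the largest move was 0.24 for the 5 genes of higher level, 0.49 for *Slc26a4* and 0.57 for *Bsnd*. Estimated by edgeR over all 20 libraries, the dispersion of all 7 genes equalled that of genes of like level. The standard errors come from fits of pairs of groups, whose dispersions were not compared in this way. The permutation tests rest on the values of each gene. The edgeR intervals of *Atp1b2* and *Kcnq1* may be too narrow, given the spread of these genes themselves. Computed from each gene's own SD of log2(CPM + 1), the standard error of a difference was 1.58 to 2.46 times that of edgeR for *Atp1b2* (0.296 to 0.456 over the 4 comparisons, against 0.186 to 0.211) and 1.33 to 1.80 times for *Kcnq1* (0.659 to 0.912, against 0.412 to 0.507). It was 0.437 to 1.73 times for *Slc26a4*, 0.358 to 1.05 times for *Slc12a2*, and below that of edgeR in all 4 comparisons for *Kcne1*, *Atp1b1* and *Bsnd*.

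Within groups the spread of all 7 genes exceeded what counting alone gives. The within-group coefficient of variation was 22.2% for *Atp1b1*, 23.4% for *Slc12a2*, 35.7% for *Kcne1* and 37.8% for *Atp1b2*. It was 58.4% for *Kcnq1*, 77.0% for *Slc26a4* and 185% for *Bsnd*. Counting error alone would give 23.1% for *Bsnd*, 11.1% for *Slc26a4* and 2.11 to 6.55% for the other 5 genes. The ratio of the measured to the counting SD was highest for *Atp1b2* (17.9) and 6.94 to 8.92 for the other 6.

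The members were then compared with each other over libraries, on log2(CPM + 1) centred on the group means, with 100000 permutations within groups for each of 21 pairs. *Kcnq1* fell into separate clusters of 4 and 16 libraries, so that its pairs were taken over the 16 alone. *Slc12a2* and *Atp1b2*, which both load dark cells with K+, gave the highest r of the other pairs, r = 0.59 and rho = 0.58 over 20 libraries (permutation p = 0.0111 for r, adjusted over 21 pairs 0.117). It was r = 0.56 without the 2 libraries farthest from the median and r = 0.57 in the 16 libraries. *Kcne1* gave r = 0.48 with *Slc12a2* and r = 0.46 with *Atp1b2* (permutation p = 0.0642 and 0.0618, both 0.270 after adjustment). *Slc12a2* and *Slc26a4* gave r = 0.34 and rho = 0.47 (permutation p = 0.0232 and 0.0107, after adjustment 0.162 and 0.182). In the 16 libraries these were 0.39 and 0.48. No pair of the 21 passed 0.05 after adjustment for r or rho. Over the 16 libraries *Kcnq1* gave r = 0.01 and rho = -0.36 with *Kcne1*, its channel partner, and r = -0.35 and rho = -0.55 with *Atp1b2* (permutation p = 0.983 and 0.253 for r, 0.983 and 0.654 after adjustment). Each point is a library, whose depth and mixture of cells enter both genes of a pair.

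**Figure D4:**
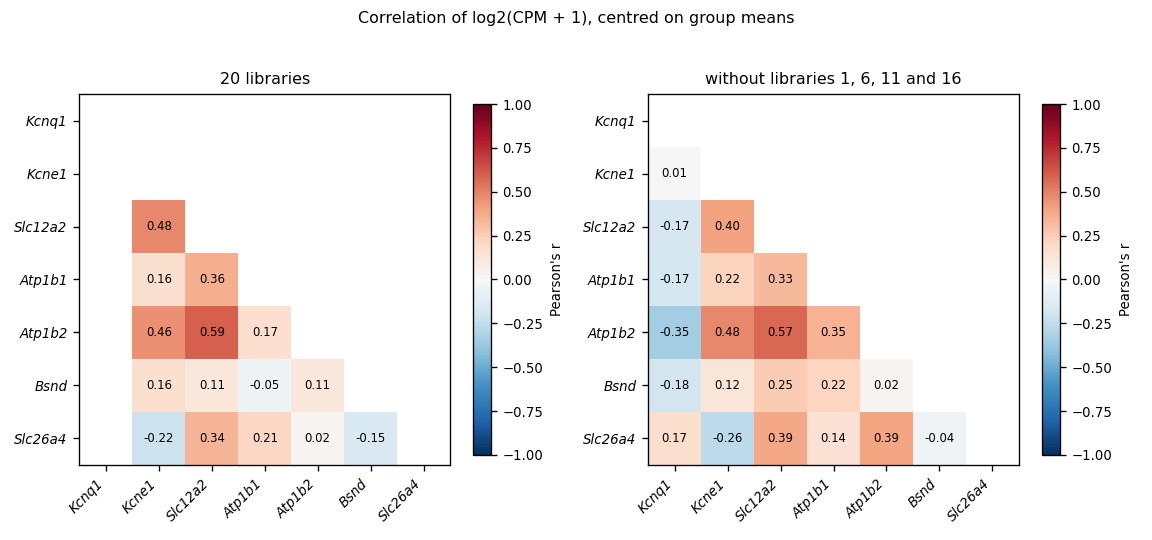
Pearson's r (colour and printed value) between members over 20 libraries (left) and over the 16 libraries without 1, 6, 11 and 16 (right), on log2(CPM + 1) centred on group means. Values for *Kcnq1* are shown on the right alone, as libraries 1, 6, 11 and 16 all lie below the other 16 in this gene. *Slc12a2* and *Atp1b2* stand at 0.59 and 0.57.

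By the same measure, the genes most like the mean of the 7 members over 20 libraries, among 7256 other genes with a mean of 20 CPM or more, were *Stk11* (a kinase, r = 0.80), *Plekho2* (r = 0.80), *Eloa* (r = 0.76), *Zbtb4* (r = 0.76) and *mt-Nd1* (a mitochondrial subunit of complex I, r = 0.76). In the 16 libraries these r were 0.63 to 0.82, on values still centred on the group means of all 20 libraries. The genes most like *Kcnq1* were *Spock2* (an extracellular matrix proteoglycan, r = 0.89), *Pkm* (pyruvate kinase, r = 0.87), *Kif19a* (a kinesin, r = 0.83), *Lyl1* (r = 0.79) and *Prr13* (r = 0.79). In the 16 libraries, centred likewise, r was 0.77 for *Pkm* and 0.68 for *Spock2*, and 0.23 to 0.38 for the other 3. Libraries 1, 6, 11 and 16 still enter these group means. How far the likeness to *Kcnq1* rested on them was not tested. None of the 5 is a gene of the lists of K+ transport.

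The other genes of K+, Na+ and Cl- transport came from 12 lists, with 67 of 68 genes in the tables, the 7 members among them. Of the 67, 8 had no count in any library and 58 had 3 counts or more in at least 1. Of those tested, 0 of 56 passed between sham + v and OVX + v, 0 of 56 between OVX + E2 and OVX + v, 0 of 58 between OVX + RAL and OVX + v and 0 of 51 between OVX + E2 and OVX + RAL by edgeR, beside the shares of all genes given above. At an unadjusted p under 0.05 these were 5, 10, 10 and 5 genes with edgeR, beside 12.5%, 13.9%, 12.1% and 14.1% of all genes tested, and 3, 2, 3 and 0 genes with DESeq2, beside 4.95%, 5.24%, 5.05% and 5.64%. The median log2 fold change of the lists was -0.16, -0.17, -0.12 and 0.0065 in these comparisons, and that of all genes tested -0.02, -0.06, -0.03 and -0.01. The values were above 0 for 22 of 56, 20 of 56, 25 of 58 and 26 of 51 genes, and for 49.0%, 47.5%, 48.3% and 49.5% of all genes tested.

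Among the partners of the members, *Atp1b3*, the other beta subunit of the Na,K-ATPase in the lists, had 701 ± 150, 766 ± 181, 643 ± 307 and 825 ± 295 CPM (SD, n = 5), in the same order of groups.

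*Fxyd6* encodes a small regulator of the Na,K-ATPase that is known from the inner ear. The level of *Fxyd6* was 669, 446, 580.2, 472 and 545 CPM in the 5 sham + v libraries and 487, 757, 823, 1198 and 1416 CPM in the 5 OVX + v libraries. It was 738, 928, 496, 635 and 498 CPM in the 5 OVX + E2 libraries and 873, 833, 800.1, 768 and 839.7 CPM in the 5 OVX + RAL libraries. All 5 sham + v values lay below all 5 OVX + RAL values, and OVX + v overlapped both, with library 6 as its lowest. The log2 fold change between sham + v and OVX + v was -0.79 (SE 0.235, 95% interval -1.25 to -0.33), with adjusted p = 0.363 by edgeR. Without libraries 1, 6, 11 and 16 it was -1.04 (SE 0.234) with adjusted p = 0.0136, a choice made after seeing the data. Markers of fibrocytes and mesenchyme lay lower in the same comparison, with sums of 7183 to 14635 CPM (median 8071) in sham + v and 9043 to 12841 CPM (median 11445) in OVX + v, and with fitted log2 fold changes of -1.36 (*Pou3f4*) to -0.010 (*Tbx18*) for the 7 genes, none past an adjusted p of 0.05 by edgeR. Choroid plexus markers summed to 222 to 1000 CPM (median 684) in sham + v and to 596 to 996 CPM (median 813) in OVX + v. Among them *Ttr* was at -0.67 (SE 0.301, adjusted p = 0.363 by edgeR). *Aqp1*, *Folr1* and *Kcnj13* also lay below 0, while *Otx2*, *Kl* and *Enpp2* lay above 0 (0.46, 1.38 and 0.20). Melanocyte markers had a median sum of 619 CPM in sham + v and 950 CPM in OVX + v. Those of supporting cells and otoconial matrix went the other way, with 3559 and 2486 CPM, and both overlapped in range. The part of any of these lists in the *Fxyd6* difference was not tested. *Fxyd6* was the one gene of the lists that passed in a pairwise comparison without these 4 libraries, 1 of 54 tested between sham + v and OVX + v, beside 0.0900% of all genes in that fit. *Fxyd1* (214 ± 79.9, 207 ± 53.5, 170 ± 68.8 and 187 ± 51.7 CPM) and *Fxyd3* (205 ± 71.0, 246 ± 37.1, 234 ± 58.5 and 217 ± 74.2 CPM, SD, n = 5), other regulators of this family, overlapped in all groups.

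**Figure D5:**
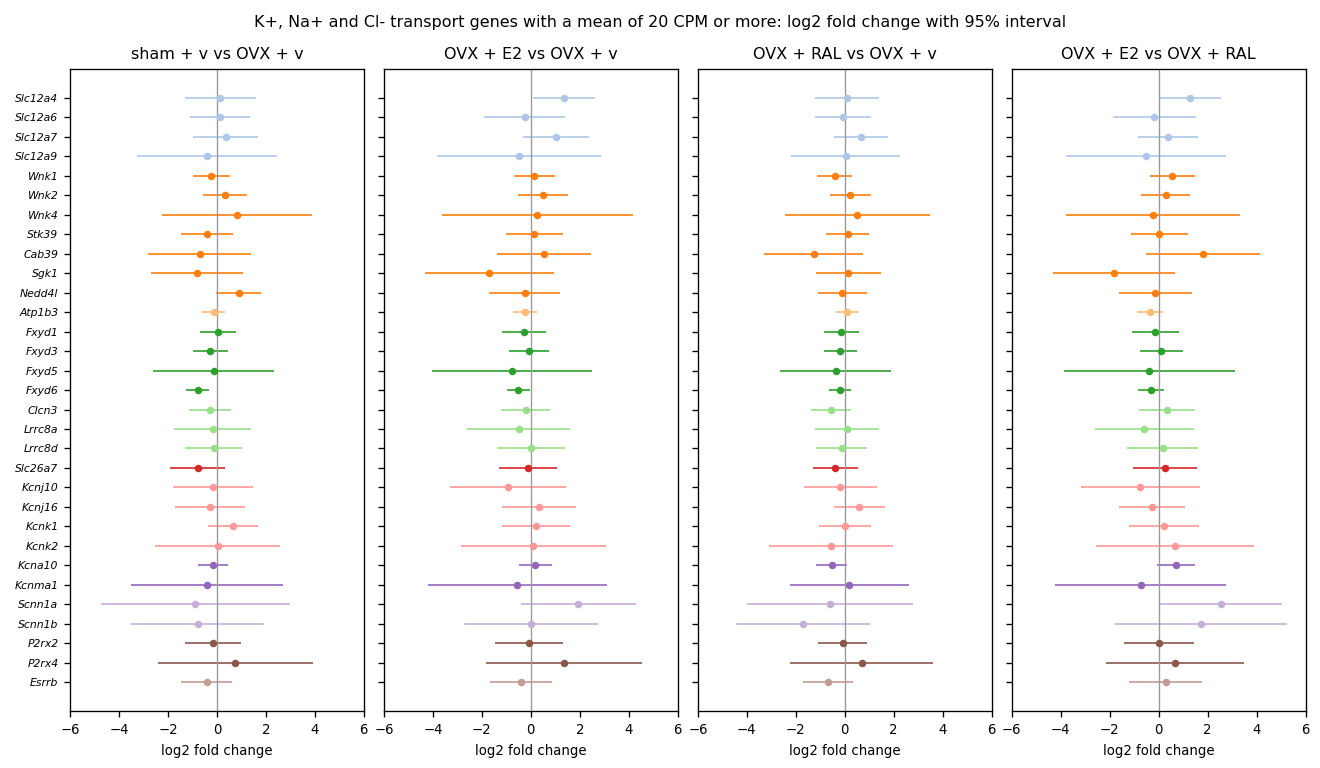
Log2 fold change (x axes) of 31 transport genes and regulators with a mean of 20 CPM or more, the 7 members left out (y axis), in 4 comparisons of 5 against 5 libraries. Points are values fitted by edgeR, bars are 95% intervals, colours mark the lists, and no gene passed an adjusted p of 0.05. *Fxyd6* lies at -0.79 between sham + v and OVX + v.

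Ranges without overlap between a pair of groups were found for 3 of these 31 genes. Of all 7262 genes of this level, 0.923% had none between sham + v and OVX + RAL, where *Fxyd6* was found, and 0.840% between OVX + v and OVX + RAL, where *Cab39* was found. *Cab39*, a scaffold of the kinases that switch NKCC1 on, had 32.4 to 59.0 CPM in OVX + v and 10.6 to 29.4 CPM in OVX + RAL, and a log2 fold change of -1.27 (SE 1.02, adjusted p = 0.998 by edgeR). *Scnn1a*, the alpha subunit of the epithelial Na+ channel, had 44.9 to 126 CPM in OVX + E2, 0 to 36.5 CPM in sham + v and 0 to 43.5 CPM in OVX + RAL. In OVX + v it had 0.623 to 55.05 CPM, which overlapped OVX + E2, and its log2 fold change in OVX + E2 against OVX + v was 1.94 (adjusted p = 0.613 by edgeR). Between sham + v and OVX + E2 and between OVX + E2 and OVX + RAL there were 0.771% and 1.07% of all such genes without overlap. Its highest library was number 11. Its log2 fold change between OVX + E2 and OVX + RAL was 2.55 (SE 1.27, adjusted p = 0.353 by edgeR), and 1.92 without libraries 1, 6, 11 and 16. Of the 6 members of this level, 0 lacked overlap in each of the 6 pairs of groups, beside 0.592% of genes between sham + v and OVX + v, 0.909% between OVX + v and OVX + E2 and the shares given for the other pairs.

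Of the kinases that set NKCC1 activity, *Wnk1* (182 ± 41.2, 212 ± 55.7, 234 ± 66.2 and 160 ± 69.0 CPM, SD, n = 5) and *Stk39* (85.8 ± 45.6, 114 ± 37.9, 126 ± 48.2 and 124 ± 61.5 CPM) had counts in all 20 libraries and did not pass in any pair of groups by edgeR. *Wnk3* was at 0 in 16, *Oxsr1* in 10 and *Wnk4* in 6 of 20 libraries. *Esrrb* had 89.9 ± 45.8, 119 ± 69.9, 89.7 ± 85.9 and 73.8 ± 72.0 CPM (SD, n = 5). In libraries 1, 6, 11 and 16 it was at 16.6, 54.2, 29.8 and 2.06 CPM, and in the other 16 at 22.7 to 233 CPM, with library 12 the lowest of these and the next at 48.3 CPM. *Kcna10*, a K+ channel of hair cells, had 287 ± 58.0, 322 ± 55.0, 364 ± 167 and 222 ± 119 CPM (SD, n = 5).

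Promoters were searched for estrogen-related motifs in the RefSeq table (GRCm38.p6), in windows from 250 bases before to 50 bases after the start of a gene, on both strands. The table held a window for 2 of the 7 members, *Atp1b1* and *Slc26a4*. The palindromic estrogen response element, the estrogen-related receptor element TCAAGGTCA and its core AAGGTCA, which lies within the second, were not in these 2 windows. Of all 32851 windows, 0.0700%, 0.423% and 4.72% held them, so that no match in 2 windows is near this background.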

How the data were processed

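Utricle RNA of 20 libraries (4 groups of 5, grouped by the labels and named by the library numbers 1 to 20) was sequenced from 3′ ends. As the methods describe, the authors trimmed the reads, removed the first 12 nucleotides of 75, mapped the rest to GRCm39 and counted them per gene in CLC Genomics Workbench. The version and the handling of reads with several matches are not given in the sources used here. The deposited total counts are raw counts per gene. The deposited tables also hold normalized levels, fold changes and p-values of the authors' comparisons, which were not used. The tables held 0 columns of other samples. No pair of replicates (of 40) was identical.

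The 7 genes and the gene lists were chosen with earlier results of these data known. Some genes of the lists are not reported here and were left out of the counts over the lists. CPM was computed from total counts. Pairs of groups were fitted by edgeR 4.0.16 (glmQLFit, glmQLFTest) with total counts as library size and genes with 10 counts or more summed over the libraries fitted, and all 20 libraries were fitted for any difference. P-values were adjusted over all genes tested (Benjamini-Hochberg, threshold 0.05). Standard errors were derived from the log2 fold change and F. Single genes were compared on log2(CPM + 1) by two-sided exact permutation tests of 252 groupings. Intervals and the floor of 3 counts cover counting error or the fitted spread only. Alternatives were TMM scaling, DESeq2 1.42.0, limma 3.58.1 on log2(CPM + 1), no filter, the default filter of edgeR, 1 fit of all groups, and leaving out each library in turn. The fit without libraries 1, 6, 11 and 16 was chosen after seeing the data. The fits were tested on simulated data. Named genes are the 7 members, list genes with a mean of 20 CPM or more, list genes past the threshold, the marker genes, and the 5 genes most like the members or *Kcnq1* in Pearson's r. *Wnk3*, *Oxsr1*, *Kcne3* and *Esrrg*, list genes of low level, were named after their values were seen. R 4.3.3 and Python 3.11.15 were used.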

Additional observations from a re-analysis of the deposited data

Results flagged for a closer look

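For each of the 7 genes, the highest and the lowest library of each group of 5 were compared with the rest of the group by the ratio of gap to range (Dixon), 28 groups of values in all. For normally distributed values chance flags about 1 in 20, which is 1.4 of 28, and 2 were flagged, both of *Bsnd*. This rate does not hold for *Bsnd*, which was at 0 in 9 of 20 libraries. Where 4 libraries of a group are at 0, the ratio is 1 whatever the remaining value. In the OVX + E2 group, library 15 held 22.4 CPM of *Bsnd* (32 counts) beside 0 in the other 4 libraries. In the OVX + RAL group, library 17 held 84.0 CPM (156 counts) beside 0 to 14.2 CPM in the others.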

How the results depend on the processing

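No member passed the adjusted threshold of 0.05 in any of the 474 pairwise fits of a member under an alternative setting (smallest adjusted p = 0.451), nor in the 182 fits of any difference among the 4 groups (smallest 0.376); these p-values are Benjamini-Hochberg adjusted within the edgeR, DESeq2 or limma fit. The sign turned in 32 fits that left out 1 library and in 4 other fits, all of them limma on log2(CPM + 1). With limma the difference from OVX + v in OVX + RAL was −0.043 for *Atp1b2*, −0.54 for *Bsnd* and −0.36 for *Slc26a4*, and *Kcnq1* was −0.095 between OVX + E2 and OVX + RAL. Leaving out each library in turn, the log2 fold change between sham + v and OVX + v ran from −0.10 to 0.33 for *Kcne1*, from −1.55 to 0.052 for *Bsnd* and from −0.37 to 0.14 for *Slc26a4*. Between OVX + E2 and OVX + v it ran from −0.17 to 0.18 for *Kcne1*, from −0.13 to 0.053 for *Atp1b1*, from −0.29 to 0.028 for *Atp1b2* and from −0.85 to 0.25 for *Slc26a4*. Between OVX + RAL and OVX + v it ran from −0.14 to 0.21 for *Kcne1*, from −0.12 to 0.25 for *Atp1b2* and from −1.08 to 1.43 for *Bsnd*, and between OVX + E2 and OVX + RAL from −0.064 to 0.47 for *Kcnq1*, from −0.20 to 0.13 for *Kcne1* and from −0.35 to 0.019 for *Atp1b2*. TMM scaling moved the median of all genes by −0.11 between OVX + E2 and OVX + v and by −0.14 between OVX + E2 and OVX + RAL, and no member changed sign under it. edgeR's default filter dropped *Bsnd* in the 2 comparisons of OVX + E2, so it has no value there. Leaving out 1 library, *Bsnd* ran from −6.95 to −0.75 between OVX + E2 and OVX + v and from −8.08 to −0.076 between OVX + E2 and OVX + RAL. Over all genes, the sham + v and OVX + v comparison had 2 calls, against 1 with TMM, 12 with DESeq2, 0 with the default filter, 4 with limma, 12 without libraries 1, 6, 11 and 16 (a setting chosen after seeing the data), and 1 to 10 leaving out 1 library, with 10 without library 1 and 1 without library 2, 7 or 10. The OVX + E2 and OVX + v comparison had 8, against 38 with DESeq2, 1 with the default filter, 13 without the 4 libraries, and 6 to 17 leaving out 1 library (17 without library 11). The OVX + RAL and OVX + v comparison had 4, against 0 with the default filter, 7 without the 4 libraries, and 3 to 11 leaving out 1 library, with 8 without library 7 or 18, 9 without library 20 and 11 without library 16. Between OVX + E2 and OVX + RAL there were 10, against 42 with DESeq2, 0 with the default filter, 16 with all 4 groups fitted together, and 8 to 16 leaving out 1 library (16 without library 11). Any difference among the 4 groups was called for 21 genes, against 2 with DESeq2, 1 with the default filter, 0 with limma and 38 without the 4 libraries. Where the default filter of edgeR left 0 calls, 148, 171 and 151 genes had an unadjusted p under 0.05 (in the order given), and limma had 816 for any difference; over all comparisons this share was 12.1 to 16.3% of genes with edgeR as reported, 1.65 to 3.02% with its default filter, 2.82 to 5.64% with DESeq2 and 4.27 to 5.69% with limma. Of the pathway list, 1 gene (*Fxyd6*) was called between sham + v and OVX + v without the 4 libraries, and none in any comparison leaving out 1 library. The cause of these shifts was not tested. No paired analysis was possible because the library numbers 1 to 20 are not shared between groups.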
